A study of Homo sapiens with 21 samples.

Results

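The collagen genes described here are 42 human COL genes, which encode chains of collagen types I to XXVIII. They were picked from the 42339 genes of the count table by matching Ensembl identifiers, with the version removed, to the gene symbols, and all 42 were found. By the structures their products form they are 11 fibrillar genes, 6 basement membrane type IV genes, 3 type VI genes, 1 anchoring fibril gene, 3 short-chain network genes, 10 genes of fibril-associated collagens (FACITs), 4 transmembrane genes, 2 multiplexin genes and 2 others. Their RNA was measured by stranded mRNA sequencing in 21 libraries of BT-549 cells, an established triple-negative breast cancer (TNBC) cell line, with 3 libraries in each of 7 groups.

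Collagens are triple-helical proteins of the extracellular matrix. Fibrillar collagens such as types I, III and V build the banded fibrils of connective tissue, type IV chains form the sheet-like network of basement membranes, and type VI chains form beaded microfilaments near the cell surface. Chains are hydroxylated and folded in the endoplasmic reticulum, secreted, trimmed by proteases and cross-linked outside the cell. In breast tumors much fibrillar collagen comes from stromal fibroblasts, and carcinoma cells with a mesenchymal program also transcribe collagen genes.

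BT-549 is wild type for BRCA1, and all 7 groups come from it. The 2D cells grew attached in RPMI1640 with fetal bovine serum and insulin. The 3D cells were control mammospheres at serial passage 6, grown in ultra-low attachment plates in MammoCult medium, so that culture format, medium and passage cannot be told apart between these groups. GO-203, a cell-penetrating peptide directed at the CQC motif in the cytoplasmic part of MUC1-C, was given to passage 6 mammospheres at 0.75 µmol/L. In the tet-MUC1shRNA and tet-MYCshRNA lines doxycycline (DOX) switches on an shRNA against MUC1 or MYC. Mammospheres of these lines received 0.1% DMSO as vehicle or 500 ng/ml DOX, the tet-MUC1shRNA line at passage 6. The passage of the tet-MYCshRNA libraries is uncertain: S8 in their titles was read as passage 8, while passage 6 is also given for this line. Each line carries 1 shRNA sequence and was a puromycin-selected population, and no DOX-treated control line is among the 21 libraries, so that DOX and the shRNA cannot be told apart.

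Library totals ran from 38026597 to 99751717 counts. Levels are given as CPM (a gene's counts relative to the library total), scaled by TMM factors over the 21 libraries, and differences as log2 fold changes between groups of 3 libraries, which stand in parentheses after the levels with the standard error (SE) and the adjusted p of edgeR's quasi-likelihood test. Per the study's methods the RNA came from triplicate cultures, so p-values measure the spread between cultures of 1 line. Replicate 1 of the DOX-treated tet-MYCshRNA group stood apart from the other two by 45.6 and 31.5 times the sampling variance, against 4.13 to 18.5 for the other 19 replicate pairs. MUC1 was at 101, 83.1 and 86.6 CPM with vehicle and 19.7, 21.2 and 23.3 CPM with DOX in its line, and MYC was at 439, 418 and 386 CPM with vehicle and 244, 279 and 297 CPM with DOX in its own, a log2 fold change of -2.06 for MUC1 and -0.62 for MYC. VIM, ZEB1, FN1 and CDH2, which mark mesenchymal cells, were present in every library, while the epithelial markers CDH1, EPCAM, KRT8 and KRT18 did not exceed 1.51 CPM. Of 6 leukocyte and endothelial markers, CD3E, CD68, CDH5 and VWF stayed below 1 CPM, PTPRC reached 1.49 CPM in 2D cells and PECAM1 reached 10.0 CPM in mammospheres.

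Transcription of the family was concentrated in few members. Of the 42 genes, 28 had a group mean of at least 1 CPM somewhere, 16 reached 10 CPM, and 14 stayed under 1 CPM in every group. COL2A1, COL5A3, COL9A1, COL11A2, COL20A1, COL22A1, COL25A1 and COL26A1 were too low to be tested in any comparison, with group means of at most 0.113 CPM. Summed over the 42 genes, 2D cells had 7843 ± 734 CPM (SD, n = 3) and 3D cells 3814 ± 119 (SD, n = 3). GO-203-treated 3D cells had 4794 ± 78.1 CPM (SD, n = 3). The tet-MUC1shRNA mammospheres had 4379 ± 233 CPM with vehicle and 4074 ± 138 with DOX, and the tet-MYCshRNA mammospheres 3157 ± 164 and 11041 ± 1754 (SD, n = 3). The DOX-treated tet-MYCshRNA libraries, at 9145 to 12606 CPM, lay above all others, and 2D cells, at 7030.1 to 8458 CPM, lay above the remaining mammosphere groups. These are bulk libraries, in which fewer cells of a type and less RNA per cell cannot be told apart.

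The chains that made up this sum differed with the culture. Per kilobase of exon, the fibrillar genes held 68.6% of the collagen signal in 2D cells and 45.2% in 3D cells, and the type VI genes 1.44% and 40.8%. The leading genes in 2D cells were COL1A2 (17.8% of the summed CPM per kb), COL5A2 (15.97%), COL15A1 (15.5%), COL3A1 (14.5%) and COL1A1 (14.4%). In 3D cells COL1A2 (26.5%) was followed by COL6A1 (20.8%) and COL6A2 (20.04%). Type VI genes held 58.4% in vehicle-treated and 28.4% in DOX-treated tet-MUC1shRNA mammospheres, and fibrillar genes 28.6% and 57.3%. In the tet-MYCshRNA line type VI genes held 70.3% with vehicle and 74.9% with DOX, while the summed level was higher with DOX.

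**Figure D1:**
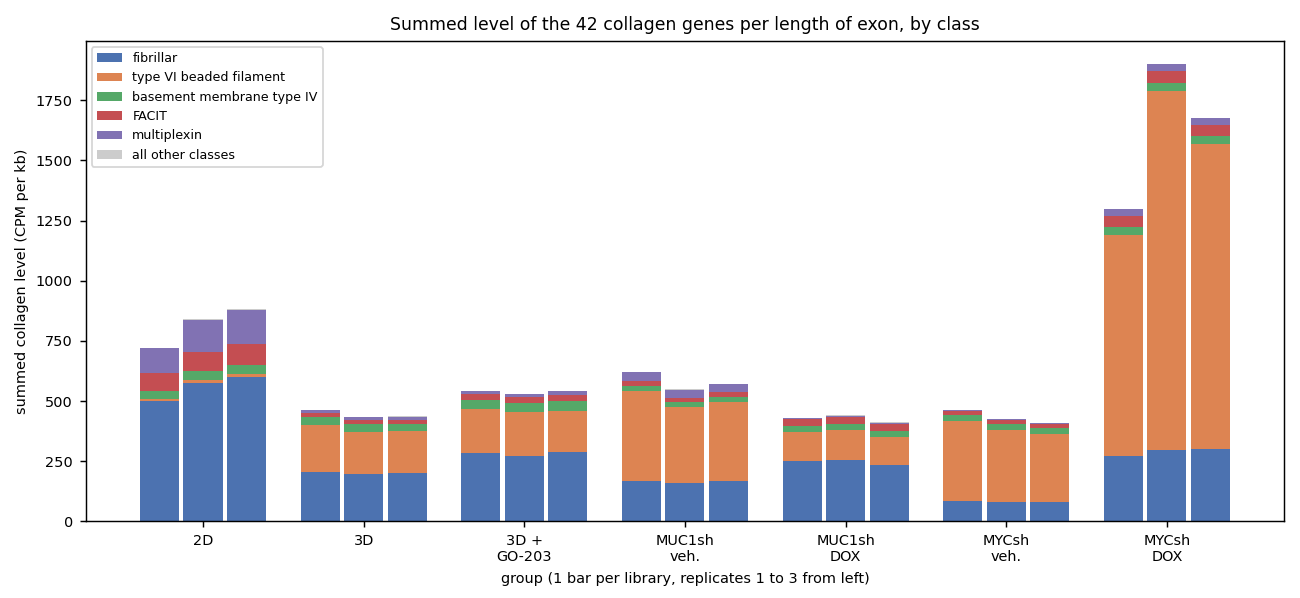
Summed level of the 42 collagen genes in CPM per kilobase of exon, 1 bar for each of the 21 libraries, divided by class. The 3 bars of 2D cells are mostly fibrillar and the 3 bars of DOX-treated tet-MYCshRNA mammospheres are the tallest and mostly type VI.

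The members lie on 17 chromosomes, and 6 pairs are close neighbours in GENCODE 44 on GRCh38. COL4A1 and COL4A2 on chromosome 13, COL4A4 and COL4A3 on chromosome 2, and COL4A6 and COL4A5 on chromosome X start head to head, with 126, 418 and 379 bases between the RefSeq start sites. COL3A1 and COL5A2 lie tail to tail on chromosome 2, 19.2 kb apart, COL19A1 and COL9A1 lie tail to tail on chromosome 6, 3.57 kb apart, and COL6A1 and COL6A2 follow each other on chromosome 21, 93.1 kb apart. RefSeq promoter windows (GRCh38.p14) were at hand for 31 of the 42 members, in 43 windows. COL1A1, COL1A2, COL2A1, COL3A1, COL5A2, COL6A1, COL8A1, COL9A3, COL14A1, COL20A1 and COL22A1 had no window. In the 250 bases before the start, the E-box CACGTG, which MYC and its partner MAX can bind, was found in 0 of the 43 windows and in 6.34% of 35116 windows of all genes, which says only that these letters are not in these windows. The GC box GGGCGG was in 23 of the 43 windows (53.5%, against 42.6% of all windows), the CCAAT box CCAAT in 12 (27.9%, against 32.0%) and the TATA box TATAAA in 7 (16.3%, against 10.7%), searched on both strands.

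These stretches are shown because later results turn on their genes: the whole stretch between the start sites of COL4A1 and COL4A2 (chr13:110307158-110307283, + strand, of which an annotated exon covers up to 26 bases), and the 250 bases before the start of COL4A5 (chrX:108439588-108439837, + strand), COL6A2 (chr21:46097862-46098111, + strand) and COL27A1 (chr9:114155287-114155536, + strand), which no annotated exon reaches. Capitals mark matches to the 4 motifs on either strand, and no matches overlap.
COL4A1-COL4A2: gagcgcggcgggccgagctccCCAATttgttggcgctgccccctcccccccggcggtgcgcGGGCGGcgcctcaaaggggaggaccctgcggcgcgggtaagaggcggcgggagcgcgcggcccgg
COL4A5: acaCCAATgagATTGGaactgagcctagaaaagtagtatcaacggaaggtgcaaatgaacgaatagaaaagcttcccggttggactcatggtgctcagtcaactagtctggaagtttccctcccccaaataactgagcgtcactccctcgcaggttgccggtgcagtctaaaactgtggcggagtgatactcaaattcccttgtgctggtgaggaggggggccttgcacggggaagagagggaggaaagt
COL6A2: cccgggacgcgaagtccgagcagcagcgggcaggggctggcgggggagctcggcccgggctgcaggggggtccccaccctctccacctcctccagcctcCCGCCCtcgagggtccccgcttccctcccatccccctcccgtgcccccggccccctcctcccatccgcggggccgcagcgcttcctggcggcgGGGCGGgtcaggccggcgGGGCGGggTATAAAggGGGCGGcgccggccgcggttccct
COL27A1: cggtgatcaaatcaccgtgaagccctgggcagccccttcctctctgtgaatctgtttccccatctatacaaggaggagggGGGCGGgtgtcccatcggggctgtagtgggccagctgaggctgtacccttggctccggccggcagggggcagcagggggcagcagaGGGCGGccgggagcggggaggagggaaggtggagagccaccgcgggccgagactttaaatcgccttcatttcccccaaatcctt
The COL6A2 stretch holds 4 GC boxes and 1 TATA box and is 79.6% G and C. The COL4A5 stretch, at 51.2% G and C, holds 2 CCAAT boxes and no GC box, whereas the stretch shared by COL4A1 and COL4A2 holds 1 of each. The COL27A1 stretch holds 2 GC boxes.

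To learn how collagen transcription differs between mammospheres and attached cells, 3D cells were compared with 2D cells. Most of the fibrillar, FACIT and multiplexin genes that could be tested were lower in 3D cells, while COL6A1 and COL6A2 were higher. Of the 32 members that could be tested, 21 fell and 7 rose at an adjusted p below 0.1, and 4 did not pass. Over all 19190 genes tested, 31.7% fell and 32.0% rose, 63.7% in all. With an absolute log2 fold change above 1.5 as well, 13 members fell and 4 rose, against 9.29% and 6.90% of all genes. The median log2 fold change of the members was -0.88, and that of all genes was -0.01.

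Among the fibrillar genes 6 of the 8 tested fell. COL1A1, which encodes the main chain of type I collagen, was at 1016, 1111 and 1011 CPM in 2D cells and 61.5, 57.3 and 55.2 CPM in 3D cells, a difference of -4.18 ± 0.07 on the log2 scale (SE, adjusted p = 2.69e-17). The 3D libraries lay far below the 2D libraries. COL1A2, which encodes its partner chain, was at 1412, 1586 and 1696 CPM against 1299, 1243 and 1275, a difference of only -0.30 ± 0.06 on the log2 scale (SE, adjusted p = 0.000392). The type I genes thus fell by unequal amounts, and the ratio of COL1A1 to COL1A2 per kilobase was 0.807 ± 0.0799 (SD, n = 3) in 2D against 0.0547 ± 0.00246 in 3D cells. COL3A1, the type III gene, went from 640.0, 852 and 909.9 to 88.01, 81.7 and 91.5 CPM (-3.21 on the log2 scale). The type V genes COL5A1 and COL5A2 fell by 1.21 and 1.60 on the log2 scale.

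Less abundant fibrillar genes moved in both directions. COL24A1 was at 13.5, 15.1 and 17.3 CPM in 2D cells and 0.08303, 0.234 and 0.108 CPM in 3D cells, a difference of -6.75 ± 0.23 on the log2 scale (SE, adjusted p = 2.67e-13). COL27A1 went the other way, from 0.5099, 0.591 and 0.376 to 5.31, 4.14 and 4.63 CPM (3.25, SE 0.22, adjusted p = 2.4e-09). Both are fibrillar genes of the more divergent branch of that family, and neither pair of groups overlapped. COL11A1, a type XI gene, had 0 counts in all 3 libraries of 2D cells and 0.8303, 1.41 and 0.7903 CPM in 3D cells. Against a floor of 3 counts per library (0.0566 CPM), COL11A1 was at least 17.8-fold higher in 3D cells.

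The 3 type VI genes did not move together. COL6A1 rose from 41.1, 45.7 and 41.3 CPM in 2D cells to 539, 495 and 502 CPM in 3D cells, a difference of 3.58 ± 0.06 on the log2 scale (SE, adjusted p = 1.22e-16). COL6A2 rose from 15.9, 21.1 and 18.3 to 516, 457 and 455 CPM (4.68, SE 0.09, adjusted p = 3.41e-16). COL6A3, which encodes the longest of the 3 chains that assemble into the type VI molecule, was at 8.49, 12.6 and 13.4 CPM in 2D cells and 1.81, 1.600 and 2.08 CPM in 3D cells (-2.65, SE 0.18, adjusted p = 1.82e-09). COL6A3 thus fell in the cells in which its partners rose, and its ratio to COL6A1 per kilobase was 0.0691 ± 0.0151 (SD, n = 3) in 2D against 0.000919 ± 0.000126 in 3D cells. COL6A5 and COL6A6, which encode chains that can take the place of the COL6A3 product, are not among the 42 members.

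Type IV genes changed less. COL4A1 was at 196, 207 and 219 CPM in 2D cells and 126, 123 and 121 in 3D cells (-0.76, SE 0.06, adjusted p = 1.18e-08). COL4A2 was at 163, 201 and 204 and 179, 166 and 158 CPM, groups that overlapped, and passed narrowly (-0.18, SE 0.08, adjusted p = 0.0597), with adjusted p = 0.176 to 0.265 without 2D replicate 2, 2D replicate 3, 3D replicate 2 or 3D replicate 3. COL4A6 rose from 10.3, 10.1 and 11.1 to 21.6, 22.3 and 21.6 CPM (1.05, SE 0.08, adjusted p = 1.77e-08), whereas its head-to-head neighbour COL4A5, at 109, 119 and 146 and 143, 139 and 139 CPM, did not pass (0.16, SE 0.08, adjusted p = 0.111). Without 2D replicate 3, the highest of the 2D libraries, COL4A5 was called higher in 3D cells (0.29, adjusted p = 0.00143), as it was with DESeq2 (0.17, adjusted p = 0.0963). COL4A3 and COL4A4 stayed below 1 CPM and did not pass.

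COL15A1, a multiplexin of the basement membrane zone, was at 687, 887 and 949 CPM in 2D cells and 85.9, 79.8 and 85.9 CPM in 3D cells (-3.33, SE 0.10, adjusted p = 3.46e-14). COL18A1, the other multiplexin and the source of endostatin, was at 13.8, 15.1 and 13.6 and 9.11, 6.303 and 6.07 CPM (-0.99, SE 0.14), and 18.5% of its exon bases overlap a gene on the opposite strand, so part of its counts is uncertain if strand was not used. All 5 tested FACIT genes fell. COL12A1, which decorates type I fibrils, fell from 1355, 1438 and 1565 to 304, 329 and 280.0 CPM (-2.26, SE 0.07). COL9A2, a cartilage FACIT, was at 1.97, 3.63 and 2.65 CPM in 2D cells and had 2 counts in all 3D libraries together, both in 3D replicate 3, a ratio of 230.4 with a 95% counting interval of 63.4 to 1908.5. COL8A1, a short-chain collagen of vessel walls, was at 2.24, 2.54 and 2.598 and 0.0415, 0.03903 and 0.186 CPM (-4.65, SE 0.40), and the log2 fold change was -5.85 without 3D replicate 3, the highest 3D library. The transmembrane gene COL13A1 was at 1.91, 2.26 and 2.48 and 0.291, 0.0781 and 0.155 CPM (-3.68, SE 0.35). In all, 25 of the 32 tested members had groups that did not overlap, against 64.2% of all genes tested.

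**Figure D2:**
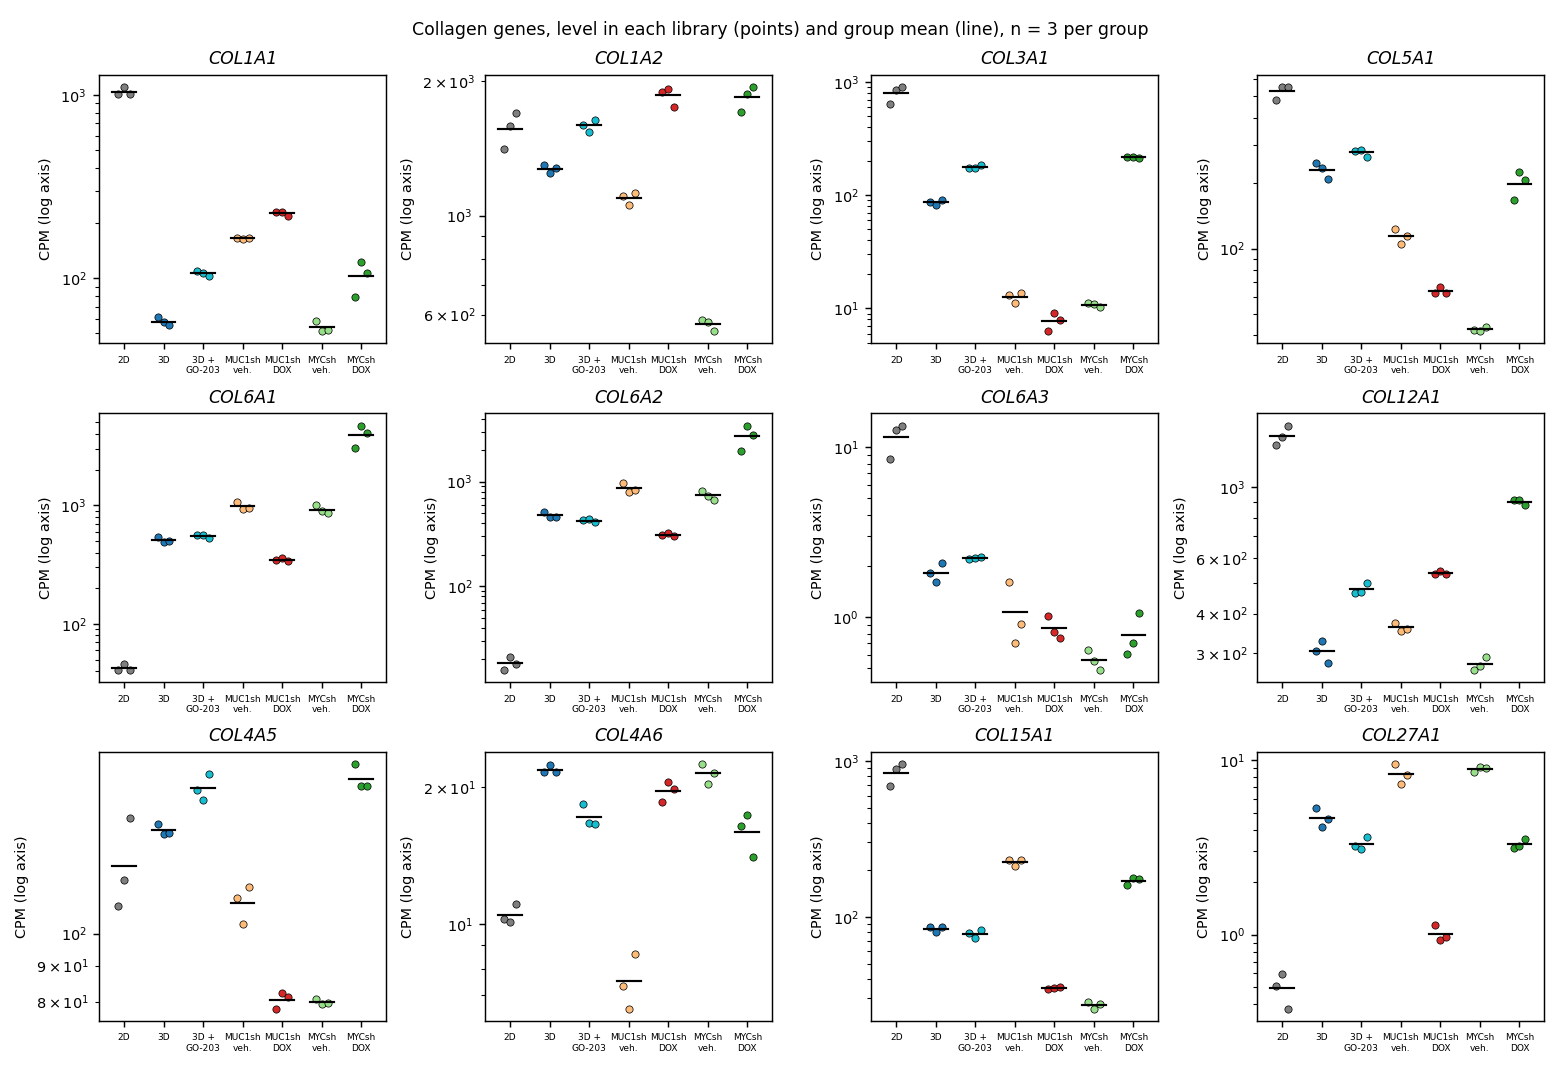
Level of 12 collagen genes in CPM (log axis) in each of the 21 libraries, with points for libraries and lines for the means of 3. COL1A1, COL3A1 and COL15A1 are highest in 2D cells, and COL6A1 and COL6A2 are lowest there and highest in DOX-treated tet-MYCshRNA mammospheres.

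When vehicle-treated tet-MUC1shRNA mammospheres took the place of the 3D cells, 7 members were higher and 19 lower than in 2D cells, against 36.1% and 37.8% of the 19018 genes tested. COL4A5 and COL4A6 then changed direction, to log2 fold changes of -0.18 and -0.49, COL16A1 went from -0.77 to 0.35 (adjusted p = 0.106), and COL8A1, COL23A1 and COL28A1 no longer passed, at -0.14, -0.61 and -0.28 (adjusted p = 0.522, 0.173 and 0.297). COL4A4 and COL17A1, which had not passed, were then called higher, at 1.21 and 1.19 (adjusted p = 0.00271 and 0.0222). COL8A1 was at 2.43, 2.02 and 2.301 CPM in those mammospheres. COL3A1 was at 13.1, 11.2 and 13.8 CPM in vehicle-treated tet-MUC1shRNA and 11.2, 10.9 and 10.4 CPM in vehicle-treated tet-MYCshRNA mammospheres, against 81.7 to 91.5 CPM in 3D cells. Levels of single members such as these thus differed between mammosphere groups. The vehicle-treated groups, which received 0.1% DMSO, were not tested against 3D cells directly. The share of counts from mitochondrial genes was 5.22 to 5.24% in 2D cells and 2.31 to 2.72% in 3D cells. Of 17 cell type markers 9 could be tested, of which 5 rose, FN1 by 3.89 on the log2 scale among them, and 4 fell, CDH2 with -3.11 among them. The log2 fold changes of the 9 ran from -9.27 to 8.84, and 1 marker had 0 counts throughout a group. The part of these measures in the collagen differences was not tested.

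GO-203-treated mammospheres were compared with the control 3D cells to see which collagen genes follow the block of MUC1-C. The comparison uses the same 3D libraries as the one above. Genes with empty cells in the count table numbered 6498 in 3D cells, as in 2D cells, and 7587 with GO-203. In every other comparison both groups shared 1 number. Why the GO-203 libraries stand apart in this is not given, and its part in the differences was not tested. GO-203-treated cells had more COL1A1, COL3A1, COL5A2 and COL12A1 RNA, by less than a log2 of 1.5. Of 28 members tested, 12 rose and 2 fell, against 11.1% and 12.9% of the 18488 genes tested, and 14 did not pass. None of the members passed an absolute log2 fold change of 1.5, which 0.498% of all genes did upward and 0.260% downward with the adjusted p, 0.757% in all. The median log2 fold change of the members was 0.19, and that of all genes was 0.02.

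Of the 7 fibrillar genes tested, 6 rose. COL3A1 was at 88.01, 81.7 and 91.5 CPM without and 175, 176 and 185 CPM with GO-203, a difference of 1.07 ± 0.06 on the log2 scale (SE, adjusted p = 2.28e-11). COL1A1 was at 61.5, 57.3 and 55.2 and 110.0, 107 and 103 CPM (0.91, SE 0.06, adjusted p = 6.84e-10), and COL1A2 at 1299, 1243 and 1275 and 1597, 1539 and 1638 CPM (0.35, SE 0.04, adjusted p = 2.8e-06). In each of these genes every GO-203 library lay above every control library. COL11A1 went from 0.8303, 1.41 and 0.7903 to 2.44, 2.36 and 1.92 CPM (1.18, SE 0.25, adjusted p = 0.00197), and COL5A1 and COL5A2 rose by 0.30 and 0.73 on the log2 scale. COL27A1 fell from 5.31, 4.14 and 4.63 to 3.23, 3.09 and 3.65 CPM (-0.46, SE 0.15, adjusted p = 0.0396), a call lost without 3D replicate 1, GO-203 replicate 1 or GO-203 replicate 2 (-0.37, -0.44 and -0.43, adjusted p = 0.192, 0.112 and 0.106).

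Among the type IV genes 4 rose and 1 fell. COL4A1 and COL4A2 rose by 0.66 and 0.31, and COL4A5 rose from 143, 139 and 139 to 160.5, 155 and 169 CPM (0.23, SE 0.06), whereas COL4A6 fell from 21.6, 22.3 and 21.6 to 18.3, 16.7 and 16.6 CPM (-0.31, SE 0.08). Neither pair of groups overlapped. COL4A4 rose by 1.03, a call lost without GO-203 replicate 2 (0.74, adjusted p = 0.147). COL6A2 was at 516, 457 and 455 CPM without and 427, 439 and 407 CPM with GO-203 and did not pass (log2 fold change -0.13, 95% confidence interval -0.26 to -0.01, adjusted p = 0.134), although without 3D replicate 3 or GO-203 replicate 2 it was called lower (-0.17 in each, adjusted p = 0.0562 and 0.066). COL6A1 overlapped between groups and passed narrowly (0.14, SE 0.05, adjusted p = 0.0703), a call lost without any of 3D replicate 2, 3D replicate 3, GO-203 replicate 1 or GO-203 replicate 2. COL12A1 rose by 0.68, and COL15A1, at 85.9, 79.8 and 85.9 and 78.3, 72.99 and 82.2 CPM, did not pass (-0.08, 95% confidence interval -0.20 to 0.05). The mitochondrial share was 3.34 to 4.40% with GO-203, above that of the 3D libraries, 0 of 8 tested markers passed, and the part of the mitochondrial share in these differences was not tested.

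**Figure D3:**
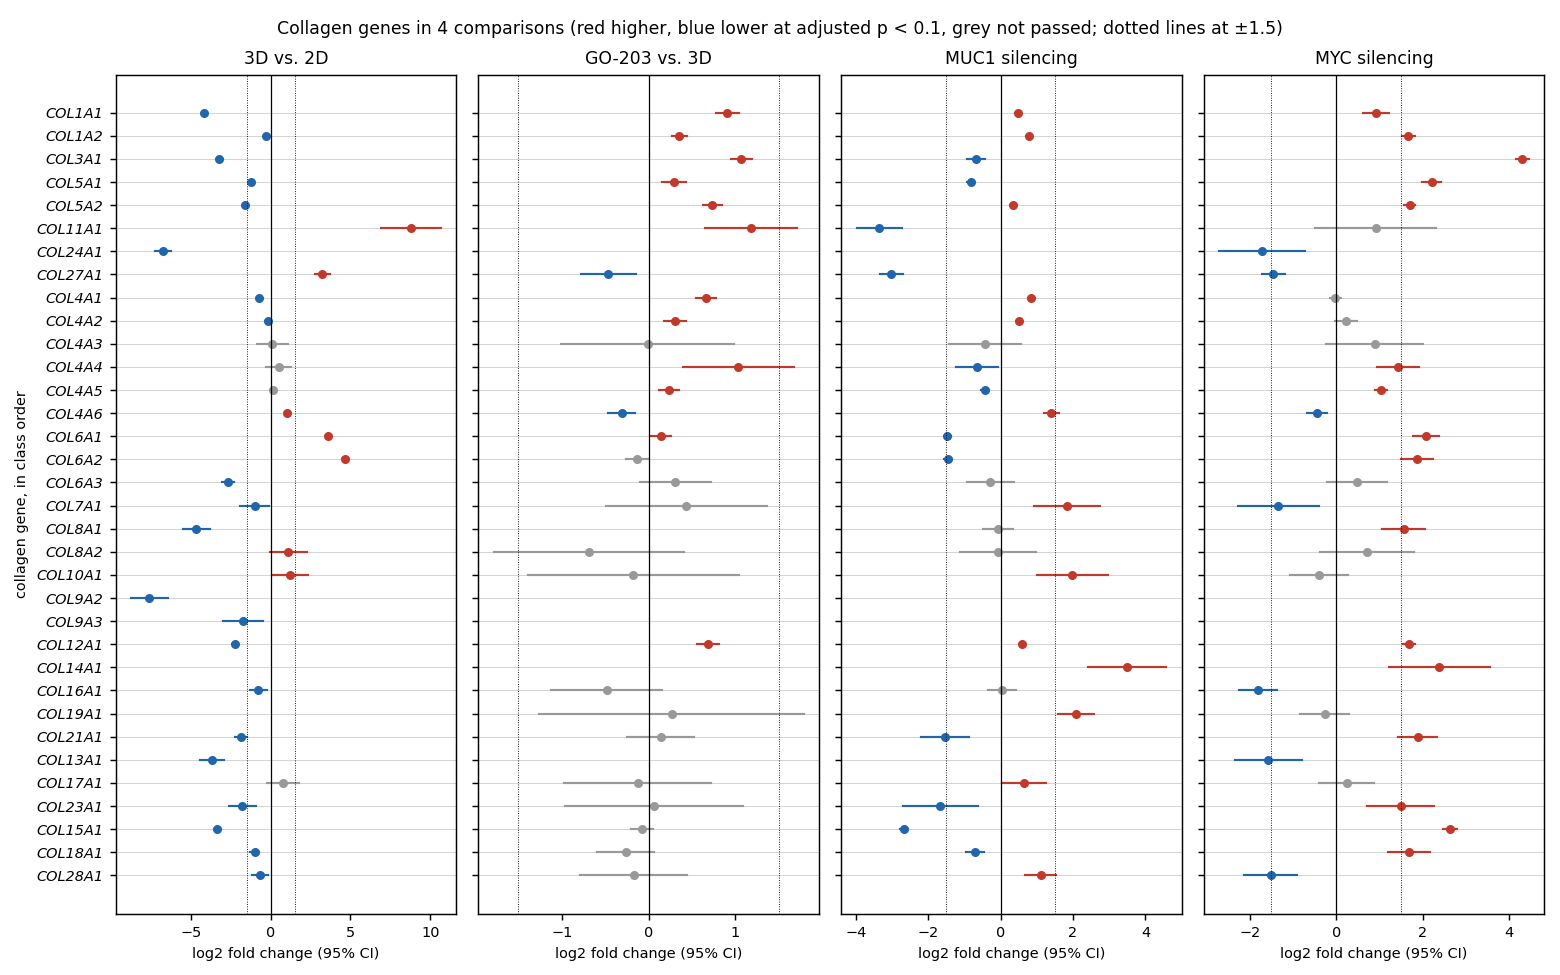
Log2 fold change with 95% confidence interval for the 34 collagen genes tested in at least 1 of 4 comparisons, in class order, each panel with its own horizontal scale. Red points are higher and blue points lower at an adjusted p below 0.1, grey points did not pass, and the fitted value of COL11A1 between 3D and 2D cells depends on a group of 0 counts.

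Silencing of MUC1 was examined in tet-MUC1shRNA mammospheres given DOX or vehicle. COL15A1, COL27A1, COL11A1, COL6A1 and COL6A2 fell, and COL1A1, COL1A2, COL4A1, COL4A6 and COL12A1 rose. Of 30 members tested, 13 rose and 12 fell, against 30.7% and 31.6% of 19220 genes (62.2% in all), and 5 did not pass. Past the log2 threshold as well, 4 rose and 5 fell, against 5.74% and 3.08% of all genes (8.82% in all). The median log2 fold change of the members was -0.07 and that of all genes was 0.02. When libraries were scaled by size alone, the median of all genes shifted by 0.17 and that of the members became 0.10, so the sign of the members' median depended on the scaling.

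COL15A1 was at 232, 213 and 231 CPM with vehicle and 34.5, 34.97 and 35.5 CPM with DOX, a difference of -2.66 ± 0.05 on the log2 scale (SE, adjusted p = 1.56e-19). COL27A1 was at 9.47, 7.36 and 8.201 and 1.13, 0.933 and 0.976 CPM (-3.02, SE 0.16, adjusted p = 9.85e-13), and COL11A1 at 2.82, 1.93 and 2.58 and 0.318, 0.195 and 0.181 CPM (-3.36, SE 0.30, adjusted p = 4.68e-09). All of these groups were separate. The type VI genes COL6A1, from 1072, 929.8 and 943 to 345, 359.6 and 339 CPM (-1.47, SE 0.05, adjusted p = 8.65e-16), and COL6A2, from 961, 795 and 839 to 309, 323 and 304 CPM (-1.45, SE 0.05, adjusted p = 4.81e-15), fell by like amounts. COL6A3, at 1.62, 0.706 and 0.905 and 1.01, 0.822 and 0.749 CPM, did not pass (-0.28, 95% confidence interval -0.93 to 0.36). COL21A1, a FACIT, fell from 1.201, 1.83 and 1.67 to 0.814, 0.376 and 0.408 CPM (-1.54, SE 0.32).

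The genes of type I rose while those of types III and V did not share a direction. COL1A2 was at 1109, 1057 and 1124 CPM with vehicle and 1895, 1924 and 1752 with DOX (0.78, SE 0.04, adjusted p = 1.08e-12), and COL1A1 at 165, 165 and 165 and 231, 229.9 and 217 CPM (0.48, SE 0.04, adjusted p = 2.46e-09). COL5A2 rose by 0.35 on the log2 scale, whereas its partner COL5A1, at 124, 105 and 114 and 62.8, 66.3 and 62.6 CPM, fell by 0.81. COL3A1, the tail-to-tail neighbour of COL5A2, was at 13.1, 11.2 and 13.8 and 6.33, 9.18 and 7.85 CPM (-0.68, SE 0.12). COL19A1, a FACIT, was at 0.9396, 1.69 and 0.649 and 4.55, 4.16 and 4.99 CPM (2.09, SE 0.24, adjusted p = 1.72e-07).

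In the type IV pair on chromosome X the neighbours moved in opposite directions. COL4A6 rose from 7.33, 6.54 and 8.63 to 18.6, 20.5 and 19.8 CPM (1.41, SE 0.10, adjusted p = 6.9e-11), and COL4A5 fell from 112, 103 and 116 to 78.2, 82.2 and 81.2 CPM (-0.44, SE 0.05, adjusted p = 2.31e-07). In the pair on chromosome 13 both rose, COL4A1 from 77.3, 80.1 and 77.7 to 145, 137 and 135 CPM (0.85, SE 0.05) and COL4A2 from 86.2, 84.5 and 81.4 to 119, 118 and 116 CPM (0.51, SE 0.05). In the pair on chromosome 2 COL4A4 fell by 0.65, a call lost without vehicle replicate 2, vehicle replicate 3 or DOX replicate 3 (-0.63, -0.65 and -0.55, adjusted p = 0.107, 0.102 and 0.118), and COL4A3 did not pass. The COL4A4 call was also lost when libraries were scaled by size alone (-0.49, adjusted p = 0.135). Other measures moved with DOX in this line, where 5 of 11 tested markers rose and 4 fell: KRT8, KRT18 and CDH1 rose by 4.84, 4.48 and 3.26 on the log2 scale to at most 1.504 CPM, CDH2 rose by 2.67, ZEB1 fell by 1.41, and the mitochondrial share went from 2.60 to 2.78% with vehicle to 6.36 to 6.72% with DOX. Their part in the collagen differences was not tested.

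Silencing of MYC was examined in the same way in tet-MYCshRNA mammospheres. Here COL3A1, COL15A1, COL5A1, COL6A1, COL5A2 and COL12A1 rose, and COL16A1, COL27A1 and COL28A1 fell. Of 32 members tested, 16 rose and 7 fell, against 30.3% and 28.1% of 19951 genes (58.5% in all), and 9 did not pass. Past the log2 threshold as well, 12 rose and 4 fell, against 7.06% and 3.39% of all genes. The median log2 fold change of the members was 0.91 and that of all genes was 0.01. Of 8 tested markers 6 rose and 1 fell, and the mitochondrial share was 3.37 to 4.08% with vehicle and 3.96 to 5.07% with DOX, whose part was not tested. On the log2 scale MYC was 0.25 higher with DOX in the tet-MUC1shRNA line (adjusted p = 5.01e-05), and MUC1 was 1.25 higher with DOX in the tet-MYCshRNA line. Without DOX replicate 1, the library that stood apart, 19 rose and 7 fell and the median was 1.11.

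COL3A1 was at 11.2, 10.9 and 10.4 CPM with vehicle and 219, 216 and 214 CPM with DOX, a difference of 4.30 ± 0.07 on the log2 scale (SE, adjusted p = 3.71e-10), and 4.29 without DOX replicate 1. COL15A1 rose from 28.3, 25.8 and 27.7 to 159, 176 and 175 CPM (2.62, SE 0.07, adjusted p = 5.36e-09), and COL5A1 from 42.4, 41.8 and 43.8 to 167, 224 and 206 CPM (2.20, SE 0.10, adjusted p = 6.37e-08). No group overlapped in these genes. COL5A2 went from 131, 128 and 136 to 421, 436 and 447 CPM (1.70, SE 0.06) and COL1A2 from 582, 579 and 552 to 1707, 1873 and 1943 CPM (1.67, SE 0.07). COL1A1 rose less, from 58.1, 51.5 and 51.8 to 78.98, 122 and 107 CPM (0.91, SE 0.13). COL12A1 was at 266, 274 and 292 and 911, 909 and 882 CPM (1.68, SE 0.06).

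COL6A1 and COL6A2 reached their highest levels of the series. COL6A1 was at 1003, 895 and 865 CPM with vehicle and 3029.6, 4699 and 4106 CPM with DOX (2.08, SE 0.14, adjusted p = 7.9e-07), and COL6A2 at 817, 727 and 668 and 1980.2, 3426 and 2793 CPM (1.87, SE 0.17, adjusted p = 5.91e-06). DOX replicate 1 was the lowest DOX library for both, and without it the log2 fold changes were 2.23 and 2.05. COL6A3, at 0.639, 0.551 and 0.4897 and 0.605, 0.706 and 1.06 CPM, did not pass (0.48, 95% confidence interval -0.21 to 1.16). COL18A1 rose from 6.63, 5.25 and 4.15 to 12.7, 22.3 and 17.5 CPM (1.69, SE 0.22) and COL21A1 from 1.21, 0.886 and 1.09 to 4.46, 3.18 and 4.28 CPM (1.89, SE 0.20). COL16A1, a FACIT, fell from 3.31, 3.298 and 4.097 to 0.827, 1.12 and 1.12 CPM (-1.81, SE 0.19).

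Type IV genes again divided by pair. COL4A5 rose from 80.8, 79.3 and 79.6 to 174, 163 and 162 CPM (1.04, SE 0.06, adjusted p = 3.66e-07), and COL4A6 fell from 22.4, 20.3 and 21.5 to 16.4, 17.3 and 14.02 CPM (-0.45, SE 0.11, adjusted p = 0.0048). COL4A1 was at 112, 112 and 112 and 113, 109 and 113 CPM and did not pass (-0.02, 95% confidence interval -0.15 to 0.10). COL4A2 did not pass either (0.23, adjusted p = 0.123), but was called higher without DOX replicate 1 (0.36, adjusted p = 0.000991). COL4A4 rose by 1.43 to at most 1.96 CPM, and COL4A3, below 1 CPM throughout, was called higher without DOX replicate 1 (1.17, adjusted p = 0.0644).

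The silencing comparisons share no library, so their difference was tested as an interaction over 12 libraries. Of the 33 members tested, 25 differed, 17 with a lower and 8 with a higher change on MUC1 silencing, against 26.9% and 26.0% of 21585 genes (52.9% in all). Past the log2 threshold as well, 12 were lower and 7 higher, against 8.56% and 7.59% of all genes. Of the 30 members tested in both silencings, 10 fell on MUC1 silencing and rose on MYC silencing: COL3A1, COL4A4, COL4A5, COL5A1, COL6A1, COL6A2, COL15A1, COL18A1, COL21A1 and COL23A1. Of the 18198 genes tested in both, 10.7% had this pattern. A further 3, COL4A6, COL7A1 and COL28A1, did the opposite, as did 8.11% of all genes. COL1A1, COL1A2, COL5A2, COL12A1 and COL14A1 rose in both, as did 11.5% of all genes, and COL27A1 fell in both, as did 12.7%. All of these but COL14A1 also passed the test of the difference.

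The largest differences were those of COL15A1, with -2.66 on MUC1 silencing and 2.62 on MYC silencing (difference -5.30 (SE 0.09, adjusted p = 7.94e-17)), and COL3A1, with -0.68 and 4.30 (difference -4.99 (SE 0.15, adjusted p = 2.6e-14)). COL6A1 and COL6A2 differed by -3.56 and -3.33. COL1A1 differed by less, -0.45 (SE 0.15, adjusted p = 0.0188), a call lost when libraries were scaled by size alone (-0.24, adjusted p = 0.157). COL27A1 fell further on MUC1 silencing (difference -1.58 (SE 0.19, adjusted p = 1.56e-06)). The lines may also differ in passage, which then cannot be told apart from the silenced gene.

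**Figure D4:**
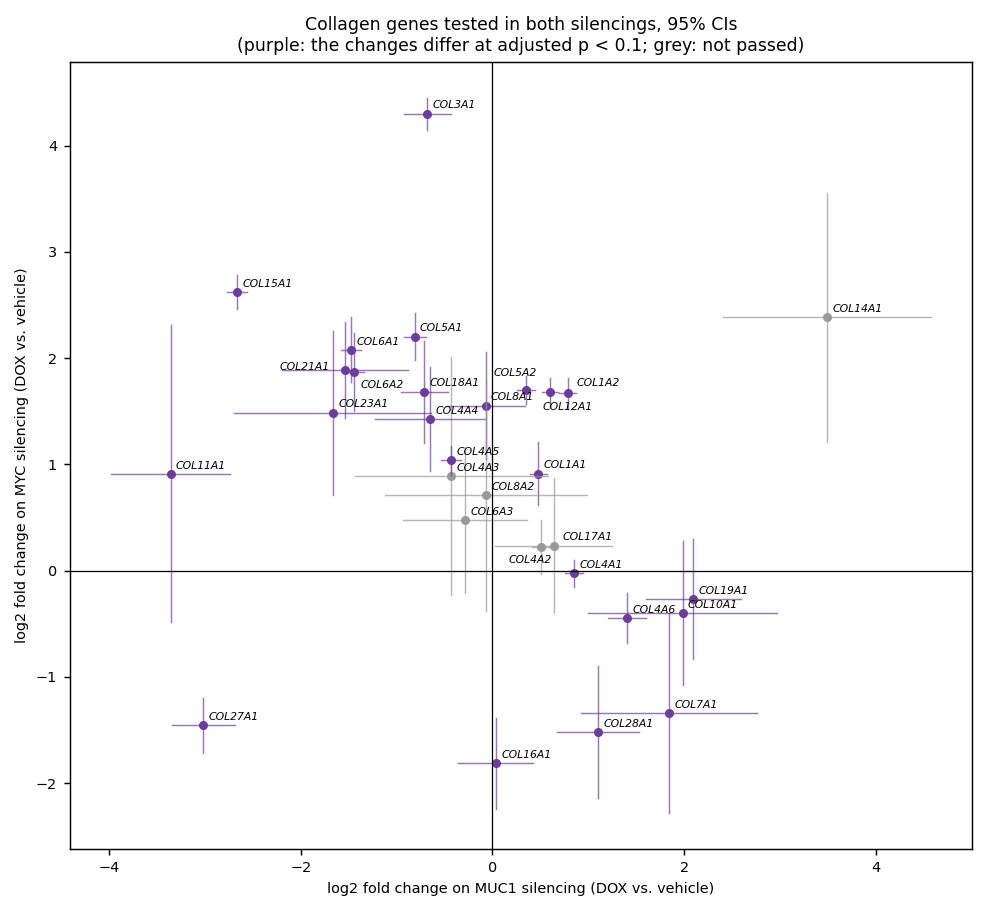
Log2 fold change of the 30 collagen genes tested in both silencings, on MUC1 silencing (horizontal) and MYC silencing (vertical), with 95% confidence intervals, purple where the changes differ at an adjusted p below 0.1. COL3A1, COL15A1, COL6A1 and COL6A2 lie in the upper left, lower on MUC1 silencing and higher on MYC silencing.

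Partner chains were not kept in a fixed ratio. Per kilobase, COL1A1 stood to COL1A2 at 0.716 to 0.864 in 2D cells and at 0.0520 to 0.187 in all mammosphere libraries, so no mammosphere library reached the 2D range. COL6A2 stood to COL6A1 at 0.403 to 0.479 in 2D cells and at 0.678 to 0.994 in mammospheres. COL6A3 stood to COL6A1 at 0.0532 to 0.0833 in 2D cells and at 3.86e-05 to 0.00108 in mammospheres. COL5A1 stood to COL5A2 at 0.309 ± 0.00714 with vehicle and 0.138 ± 0.00523 with DOX in tet-MUC1shRNA mammospheres, and at 0.212 ± 0.00162 and 0.300 ± 0.0379 in tet-MYCshRNA mammospheres (SD, n = 3). COL4A6 stood to COL4A5 at 0.0865 ± 0.00731 with vehicle and 0.312 ± 0.00737 with DOX in the former line and at 0.343 ± 0.0138 and 0.122 ± 0.0130 in the latter (SD, n = 3). These ratios are a description and carry no test.

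**Figure D5:**
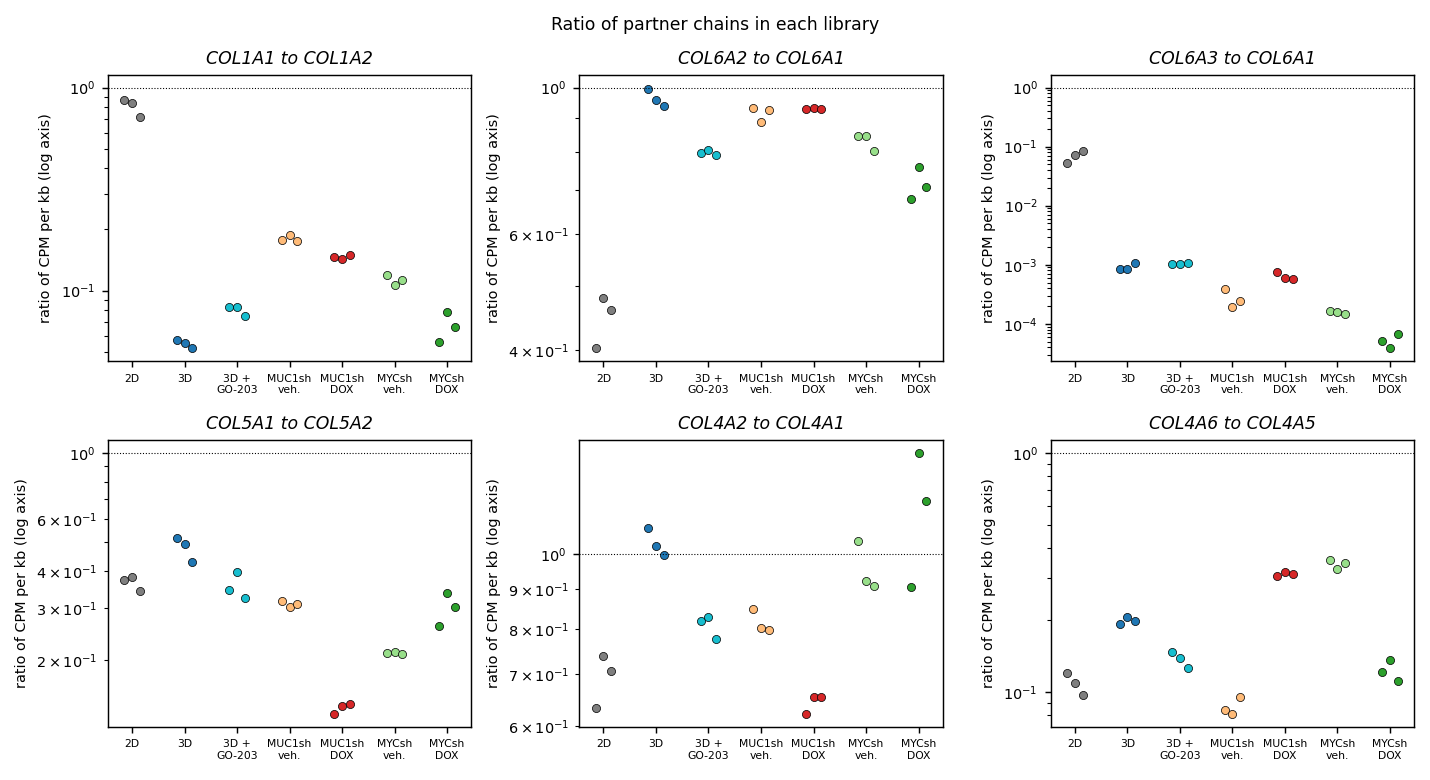
Ratio of partner collagen chains in each library, from CPM per kilobase of exon (log axis), 3 points per group, with a dotted line at 1. COL6A3 to COL6A1 is lower in all 18 mammosphere libraries than in the 3 libraries of 2D cells, and COL4A6 to COL4A5 moves in opposite directions with DOX in the tet lines.

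The remaining members had group means of at most 1.14 CPM, except COL28A1, which reached 2.80 CPM. COL7A1, the anchoring fibril gene, was at 0.104, 0.188 and 0.236 CPM with vehicle and 0.796, 0.599 and 0.522 CPM with DOX in the tet-MUC1shRNA line (1.84, SE 0.44) and at 0.599, 0.532 and 0.686 and 0.101, 0.3098 and 0.3002 CPM in the tet-MYCshRNA line (-1.34, SE 0.42). COL28A1 went from 1.64, 1.08 and 1.26 to 3.17, 2.45 and 2.79 CPM in the former (1.10, SE 0.20) and from 2.32, 2.06 and 2.02 to 1.09, 0.706 and 0.4898 CPM in the latter (-1.52, SE 0.28). These genes thus moved opposite to COL6A1 in both lines. COL14A1, a FACIT of tendon and skin, had 8 counts with vehicle and 124 with DOX in the tet-MUC1shRNA line, a ratio of 11.8 with a 95% counting interval of 5.82 to 28.0. COL10A1, the type X gene of growth cartilage, was higher by 1.98 on MUC1 silencing, and the transmembrane gene COL23A1 was lower by a log2 fold change of -1.66 with groups that overlapped. Of the 4 comparisons COL17A1, a hemidesmosome component, passed only on MUC1 silencing (0.64, SE 0.29, adjusted p = 0.0699), COL8A2 only between 3D and 2D cells (1.10, SE 0.54, adjusted p = 0.0954), and in both cases the groups overlapped. The call of COL17A1 was lost without vehicle replicate 1, vehicle replicate 2 or DOX replicate 3 (adjusted p = 0.176, 0.171 and 0.257), and that of COL8A2 without 2D replicate 1, 2D replicate 3, 3D replicate 1 or 3D replicate 2 (adjusted p = 0.297, 0.228, 0.227 and 0.187), while its log2 fold change was 1.75 without 2D replicate 2. On MYC silencing COL8A2 was called higher without DOX replicate 3 (1.12, adjusted p = 0.0346). COL9A3 was tested only between 3D and 2D cells and in the interaction, and fell in the former (-1.74, SE 0.60, adjusted p = 0.0195). Between 3D and 2D cells COL7A1 fell narrowly (-0.99, SE 0.42, adjusted p = 0.0568), a call lost without 2D replicate 1, 2D replicate 3, 3D replicate 1 or 3D replicate 3 (adjusted p = 0.105 to 0.247). COL10A1 rose narrowly there (1.23, SE 0.53, adjusted p = 0.0579), a call lost without 2D replicate 1, 2D replicate 2, 2D replicate 3 or 3D replicate 2 (adjusted p = 0.131 to 0.307).

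Genes that act on collagen chains were described beside them, as 36 genes of hydroxylation, folding, cleavage and cross-linking and 9 receptors. In 3D against 2D cells 23 of 35 tested processing genes fell and 8 rose, where 31.7% of all genes fell and 32.0% rose. P4HA3, a prolyl hydroxylase subunit, went from 17.8, 22.1 and 23.8 to 1.22, 1.37 and 1.26 CPM (-4.06). LOXL1, a lysyl oxidase that cross-links fibers, went from 137, 165 and 146 to 8.57, 8.14 and 7.33 CPM (-4.23), and SPARC, a collagen-binding chaperone of the matrix, from 4038, 4681 and 4669 to 289.8, 274 and 296 CPM (-3.97). The procollagen N-proteinases ADAMTS2 and ADAMTS3 fell by 2.58 and 3.99, and COLGALT2, which glycosylates hydroxylysine, fell by 2.13. Of 8 receptors 4 fell and 2 rose, and the integrin subunit ITGA10 rose from 5.03, 9.28 and 7.91 to 209, 205 and 219 CPM (4.81). With GO-203, 5 of 35 processing genes rose and 3 fell, and 1 of 8 receptors fell, with 0 processing genes lower without 3D replicate 1 and 1 receptor higher without GO-203 replicate 2, where 11.1% of all genes rose and 12.9% fell.

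On MUC1 silencing 24 of 35 tested processing genes fell and 7 rose, where 31.6% of all genes fell and 30.7% rose, and their median was -0.72 against 0.02 over all genes. Of the 10 genes of prolyl hydroxylation 9 fell and 0 rose. P4HA1, the main catalytic subunit of collagen prolyl 4-hydroxylase, was at 216, 200.5 and 198 CPM with vehicle and 36.6, 46.8 and 36.7 CPM with DOX (-2.33, SE 0.07, adjusted p = 2.12e-16). Its partner subunit P4HB went from 295, 239 and 259.6 to 67.5, 74.9 and 64.4 CPM (-1.91, SE 0.06, adjusted p = 8.08e-16). P4HA2, CRTAP and PLOD1 fell by 1.91, 1.75 and 1.58, and the cross-linking enzyme LOX went from 1502, 1200.3 and 1354 to 375, 436 and 342 CPM (-1.79). Among the receptors 4 of 8 rose and 2 fell: ITGA2, a subunit of a collagen-binding integrin, rose from 0.783, 0.376 and 0.787 to 12.7, 12.5 and 12.9 CPM (4.30), and MRC2, which takes up collagen for breakdown, fell by 2.15.

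On MYC silencing 19 of 36 tested processing genes rose and 7 fell, with a median of 0.18 against 0.01 over all genes, and 6 of 9 receptors rose, where 30.3% of all genes rose and 28.1% fell. P4HA1, at 162, 173 and 178 CPM with vehicle and 189, 177 and 177 CPM with DOX, did not pass (0.06, 95% confidence interval -0.08 to 0.20). ADAMTS2 rose from 5.15, 5.26 and 5.93 to 18.8, 22.9 and 19.8 CPM (1.89) and ADAMTS14, another procollagen proteinase, from 2.42, 3.12 and 2.46 to 12.3, 17.5 and 13.5 CPM (2.41). The changes of 29 of the 36 processing genes differed between the silencings, 25 of them lower on MUC1 silencing, where 52.9% of all genes differed and 26.9% were lower, among them P4HA1 (-2.40), P4HB (-2.30), SERPINH1, the collagen chaperone HSP47 (-1.77), and LOX (-1.97).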

How the data were processed

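Per the labels and the study's methods, the authors made TruSeq stranded mRNA libraries, aligned paired reads to GRCh38 with STAR (2.7.3a in the submitters' processing notes) and counted reads per gene with featureCounts. Annotation release, strand setting and multimapper handling were not given in the sources used here. The deposited values are raw counts for 21 libraries, and empty cells were read as 0. Of values from 1 to 20, 67.4 to 70.9% were even and 2 was more frequent than 1, so intervals and floors, which cover counting error only, may be too narrow.

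Each comparison was fitted with edgeR 4.0.16 (quasi-likelihood, filterByExpr, TMM factors) in R 4.3.3 on its own libraries, with Benjamini-Hochberg adjustment over all genes tested. A gene passed at an adjusted p below 0.1, and past the fold threshold at an absolute log2 fold change above 1.5. On simulated data with 200 genes changed by a log2 of 2, 99.5 to 100% were recovered. Levels are CPM. Per-kilobase levels use GENCODE 44 exon lengths, and 32 of 42 members carry its identifier version. Named members passed both thresholds at 1 CPM or more (the 10 largest changes per comparison), reached 10 CPM, or are partners of such genes; the low members and the genes whose calls changed were added after their values were seen. The members and gene lists were chosen with earlier results of these data known. DESeq2 1.42.0, other scalings, filters, thresholds, groups and left-out libraries were tried as alternatives.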

Additional observations from a re-analysis of the deposited data

Results flagged for a closer look

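The following 25 collagen genes, all that passed, responded differently to the silencing of MUC1 and of MYC in a test of the difference itself (edgeR interaction over 12 libraries, Benjamini-Hochberg adjusted), given as the log2 fold change on MUC1 silencing minus that on MYC silencing. Of all 21585 genes tested, 52.9% differed, 26.9% with a lower and 26.0% with a higher change on MUC1 silencing. The change was lower on MUC1 silencing for COL15A1 (-5.30), COL3A1 (-4.99), COL11A1 (-4.29), COL6A1 (-3.56), COL21A1 (-3.44), COL6A2 (-3.33), COL23A1 (-3.17), COL5A1 (-3.03), COL18A1 (-2.41), COL4A4 (-2.09), COL8A1 (-1.64), COL27A1 (-1.58), COL4A5 (-1.49), COL5A2 (-1.37), COL12A1 (-1.10), COL1A2 (-0.90) and COL1A1 (-0.45). It was higher on MUC1 silencing for COL7A1 (3.17), COL24A1 (2.87), COL28A1 (2.61), COL10A1 (2.37), COL19A1 (2.35), COL4A6 (1.84), COL16A1 (1.83) and COL4A1 (0.86). The adjusted p was highest for COL1A1, at 0.0188, and lowest for COL15A1, at 7.94e-17. COL11A1 did not pass on MYC silencing alone (0.91, adjusted p = 0.255), nor did COL19A1 (-0.27, adjusted p = 0.415), COL10A1 or COL4A1, COL24A1 was too low to be tested on MUC1 silencing alone, and COL8A1 and COL16A1 did not pass on MUC1 silencing alone. The lines may also differ in passage, 6 against 8 as read from the titles, and MUC1 fell by 2.06 in its line whereas MYC fell by 0.62 in the other, which cannot be told apart from the identity of the silenced gene.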

How the results depend on the processing

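Of 2445 repeats of a member's test under another setting or without a library, 101 changed the call, 70 by losing it and 31 by gaining it, in 36 combinations of member and comparison. A further 3, in which the log2 fold change took the other sign, are counted apart. With at least 10 counts in every library, 4 in place of 7 members were higher in 3D than in 2D cells, since fewer genes are then tested. With a fold change above 1.5 as well, 7 in place of 12 members rose and 0 in place of 2 fell with GO-203. The share of all genes at that threshold is not given here, so these counts have no background. With the vehicle group of the tet-MUC1shRNA line standing in for 3D cells, COL4A5 (-0.18, adjusted p = 0.0712), COL4A6 (-0.49) and COL16A1 (0.35, adjusted p = 0.106) changed sign, and the cause was not tested. Of these only COL4A6 passed with either group. Without single libraries there were 5 to 7 higher and 18 to 20 lower members in 3D cells, 10 to 12 and 1 to 3 with GO-203, 12 to 13 and 11 to 12 on MUC1 silencing, and 16 to 19 and 7 on MYC silencing. Members that fell with GO-203 numbered 1 without 3D replicate 1 or GO-203 replicate 1. In the interaction 25 to 27 members differed. Scaling by library size alone shifted the median of all genes by 0.17 on MUC1 silencing and 0.20 in the interaction. Replicate numbers did not pair the samples, as deviations of same-numbered libraries correlated at -0.14 to 0.07. With the replicate block 6 members rose and 19 fell in 3D cells, 12 and 3 with GO-203, 13 and 12 on MUC1 silencing and 16 and 7 on MYC silencing, and 25 differed in the interaction.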
